A study of Oryzias melastigma with 6 samples.

Results

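The testis of marine medaka (Oryzias melastigma) held 66 small RNA sequences that were listed in no other organ. Within the limits given below, none of the 66 matched a conserved miRNA or a sequencing adapter. They came out of 321 sequences listed for testis and 1571 distinct sequences in the whole series. They were selected on their measured level and listing: a value of at least 10.03 RPM (reads per 1000000 reads of the library) in testis, and no row with the same letters in the other 5 libraries. Rows within 2 mismatches of a conserved vertebrate miRNA, with the 5' end shifted by at most 3 nt, and rows matching Illumina adapter were left out. The level in testis and the lack of a listing elsewhere are therefore what defined the set, and are given as a description. Most of the 66 began with T (the files write T for U), most were 23 nt long, and 22 held the 5 letters GATCT near the 5' end.

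The study sequenced gel-purified small RNA from mature, breeding marine medaka, with 1 library each of testis, of ovary, and of brain and liver from either sex. The labels name no treatment, strain or age, and the 6 groups differ in sex and organ. Tissue samples were pooled before extraction, from how many fish is not stated in the labels, and no group was replicated. Testis was 1 library, so its values are given with counting error only and without a test against the other organs. In pooled whole organs, fewer cells of a type and less RNA per cell cannot be told apart.

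Animal gonads make small RNAs of several kinds. miRNAs are cut from short hairpins and silence mRNAs. The longer piRNAs bind Piwi proteins in germ cells, silence transposons, and mostly start with U. In the ping-pong cycle one piRNA guides the cut that makes the 5' end of the next, which leaves pairs of sequences from opposite strands whose first 10 bases are complementary, and places an A at position 10 of the second. Pieces of tRNA and rRNA also fall in this size range. The deposited files list only sequences of 20 to 23 nt, so longer RNAs, the bulk of piRNAs included, were not analysed here.

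The 10 most abundant of the 66 are shown first, because they carry 30.7% of the summed level. One of these, a tRNA match, is named further on without its letters. Capitals mark GATCT or, where that is missing, ATCT, and each sequence is written 5' to 3' as deposited.
Rank 1: tGATCTcaattggcacgtcaagg
Rank 2: tATCTacagagtcatttttgt
Rank 3: ttattctggaataatattcc
Rank 5: tgatcctaatagctctgctgtta
Rank 6: tGATCTcacattatttatagg
Rank 7: taGATCTtcttcaggcgatagta
Rank 8: tcgaaGATCTgctccagggtgtc
Rank 9: tgttcgaaGATCTgctccagggt
Rank 10: taGATCTaatcaccagagtggtt

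Every sequence in that list begins with T, and GATCT starts between positions 2 and 9 in 6 of the 10. No genome was used, so none is placed on a chromosome or in a gene.

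The library was checked against marker miRNAs of the organs. Testis held 1256 RPM of miR-202-5p, a miRNA of fish gonads, and ovary 2280 RPM, while the other 4 libraries listed none. The liver miRNA miR-122-5p and the brain miRNAs miR-9-3p, miR-9-5p and miR-124-3p were unlisted in testis. Another miRNA high in liver, miR-194-5p, was listed at 26.87 RPM in testis, against 7055 RPM in female liver, 6962 RPM in male liver and 117.3 RPM in ovary. Of the blood cell miRNAs, miR-451-5p of red cells stood at 13.86 RPM in testis, miR-142-3p of leukocytes at 45.39 RPM, and miR-142-5p, miR-144-3p and miR-223-3p were unlisted. The muscle miRNA miR-1-3p stood at 79.15 RPM and miR-133-3p was unlisted. The steps between deposited values imply 25.5 M reads for testis and 18.7 to 22.9 M reads for the other libraries. The lowest value listed lay between 6.002 and 10.03 RPM, depending on the library.

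Of the 321 testis rows, 70 had letters found in no other file. One of these lay at 10.0256 RPM, under the minimum, and 3 matched miRNAs, namely 1 miR-143 and 2 miR-2184, a miRNA known from other fish. None matched adapter, and 66 remained, which is 20.7% of the 319 testis rows at or above the minimum. The same steps left 71 rows in ovary (18.7%), while brain kept 3 from females (0.3%) and 3 from males (0.354%), and liver 2 from females (0.746%) and 1 from males (0.348%). Each brain and liver library was compared with a library of the same organ from the other sex, and testis and ovary were not, so the shares of gonads and of brain and liver are not like for like.

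The 66 sequences were rare. Level and listing had been used to choose them, so the medians below only describe the set. Their levels ran from 10.22 to 65.83 RPM with a median of 13.06 RPM, against a median of 28.2 RPM for the 169 miRNA rows of testis and 25.42 RPM for its 79 other rows that were listed elsewhere too. Together they reached 1071 RPM, or 5.15% of the listed testis signal and 0.107% of all testis reads (95% Wilson interval 0.1058 to 0.1083, counting error only). The reads are PCR copies without molecular identifiers, so the intervals do not cover amplification.

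The highest, rank 1, had 65.83 RPM from 1681 reads (95% Wilson interval 62.76 to 69.05). Rank 2 followed with 39.32 RPM from 1004 reads (36.96 to 41.83). Rank 3, a sequence rich in A and T, had 34.15 RPM (31.96 to 36.49), which overlaps the interval of rank 4, the tRNA piece, at 34.11 RPM (31.92 to 36.45). Rank 1 stood clear of rank 2 and rank 2 of rank 3.

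Ranks 5 to 7 lay close together, at 30.12, 29.61 and 28.35 RPM. Rank 8 had 24.01 RPM, rank 9 22.95 RPM and rank 10 20.72 RPM. The interval of rank 7 (26.36 to 30.5) did not reach that of rank 8 (22.18 to 25.98), while all other neighbours from rank 3 down overlapped. Below rank 11 came a dense field, with 34 sequences from 12 to under 20 RPM and 21 under 12 RPM.

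**Figure D1:**
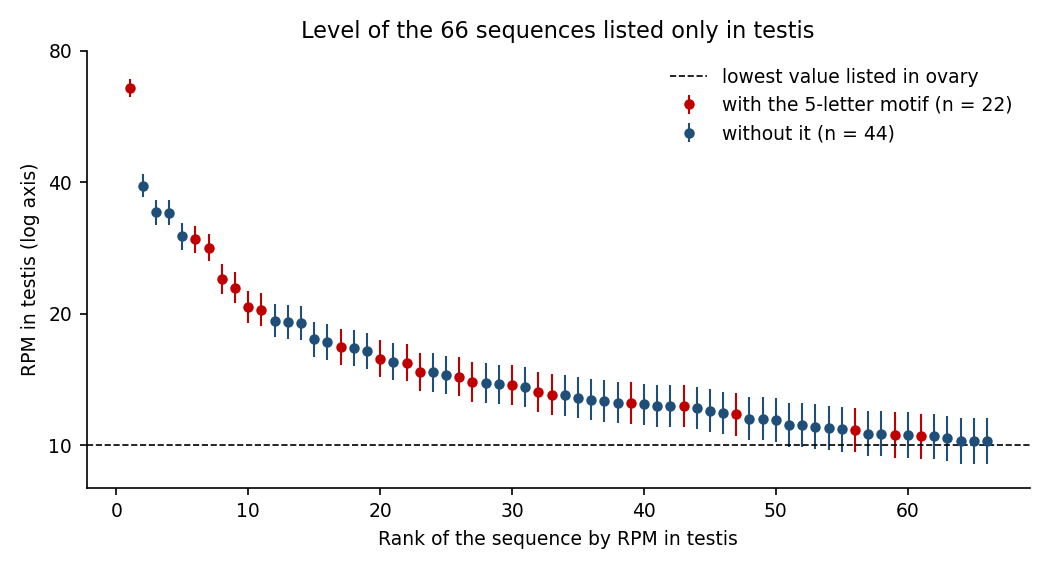
RPM in testis on a log axis for each of the 66 sequences listed in testis alone, ordered by level, with 95% Wilson intervals for counting error. The 5-letter motif is GATCT, and the dashed line is the lowest value that the ovary file lists, 10.0043 RPM. Rank 1 stands alone at 65.83 RPM, and 7 of the 11 sequences at or above 20 RPM hold the motif.

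Unlisted does not mean absent, since each file stops at its own lowest value. The highest such value in the other 5 files was 10.0043 RPM, in ovary. If the files list everything above their lowest value, rank 1 was at least 6.58-fold above every other library, rank 2 at least 3.93-fold and rank 3 at least 3.41-fold. These folds use point values without counting error. By them, 11 of the 66 sequences stood at least 2-fold above that value and 5 at least 3-fold. For 16 the interval began under it, so at this depth their level in testis and a level just too low to be listed in ovary could not be told apart.

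The 3 sequences nearest the minimum each had 10.22 RPM. They are given because they mark the edge of the set.
Rank 64: tcaATCTcaaacacagtgttg
Rank 65: tctgaaagctgaacggtggcagg
Rank 66: tctgtgttcctggagcaggaatc
The row just outside, at 10.0256 RPM, was a sequence of 23 nt that resembles a tRNA-Glu piece.

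Length leaned to the upper edge of what the files list. Of the 66 sequences, 40 were 23 nt long (60.6%), 5 were 22 nt (7.58%), 12 were 21 nt (18.2%) and 9 were 20 nt (13.6%). Weighted by RPM, 58.9% of the signal was at 23 nt. By count, the miRNA rows of testis peaked at 22 nt, with 40.8% there and 20.7% at 23 nt. Of the ovary-only sequences 43.7% had 23 nt, and of the non-miRNA testis rows shared with another library 30.4%. Among these shared rows, the 10 that only ovary and testis list had 23 nt in 60.0%, near the share of the set. As the lists end at 23 nt, whether the set runs on to longer RNAs was not measured.

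The first base was T in 58 of 66 sequences (87.9%), A in 4 and G in 4, and C in 0. By count, T began 54.9% of the ovary-only sequences, where G began 33.8%. It began 41.8% of the shared non-miRNA rows of testis and 67.5% of its miRNA rows. Over all 1571 distinct sequences T began 56.5%. Among the 10 rows that only ovary and testis list, 7 began with T. By RPM the share of T was 91.0% in the set and 85.4% in the miRNA rows of testis. By the same measure it was 57.4% in the shared non-miRNA rows and 46.2% in the ovary-only sequences. Among the 23-nt sequences of the set 35 of 40 began with T, and among the shorter ones 23 of 26. The lean to T was thus present at both lengths, and it is known of both miRNAs and piRNAs.

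**Figure D2:**
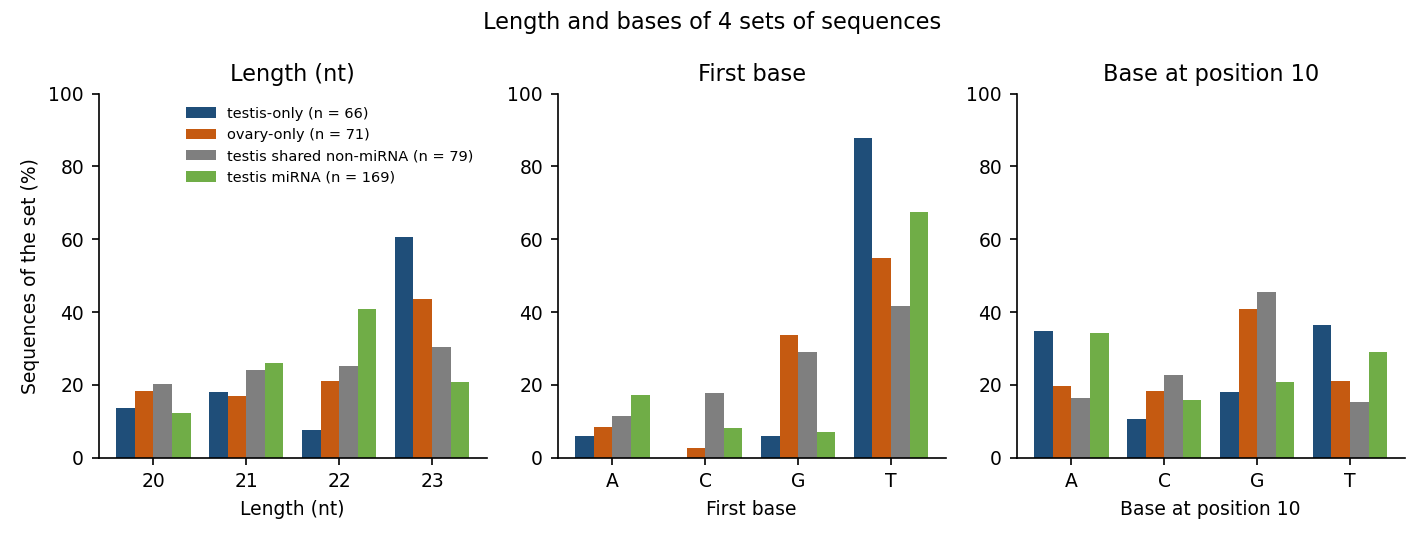
Percent of sequences by length in nt, by first base and by base at position 10, in the 66 non-miRNA sequences listed only in testis, the 71 listed only in ovary, the 79 non-miRNA rows of testis listed elsewhere too, and the 169 miRNA rows of testis. The testis-only set has the tallest bars at 23 nt (60.6%) and at a first T (87.9%), and its A at position 10 (34.8%) is level with that of the miRNA rows (34.3%).

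Position 10 held A in 23 of 66 sequences (34.8%), T in 24 (36.4%), G in 12 and C in 7. The miRNA rows of testis had A there in 34.3%, close to the set. The ovary-only sequences had 19.7% and the shared non-miRNA rows of testis 16.5%. Over all 1571 distinct sequences the share was 30.4%, and 4 of the 10 rows that only ovary and testis list had A there. Of the 23 sequences with A at position 10, 20 began with T and 3 did not. A first T was about as common over the whole set, in 58 of 66 (87.9%). A first T without A at position 10 was seen in 38, and neither in 5.

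**Figure D3:**
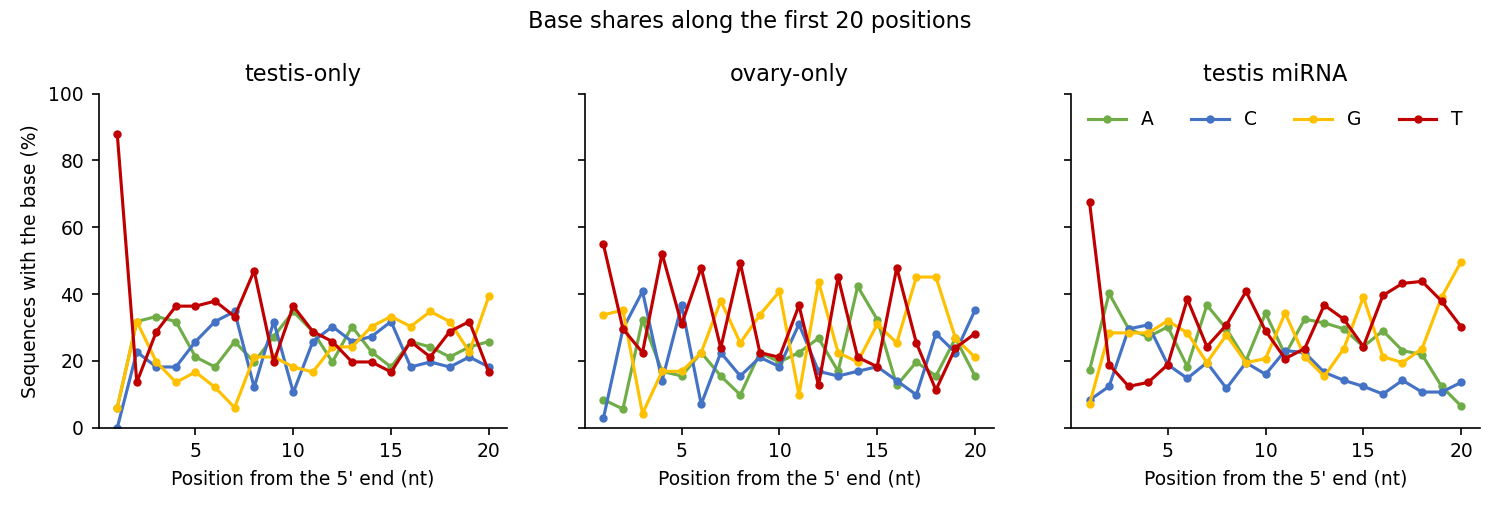
Percent of sequences with each base at positions 1 to 20 from the 5' end, for the testis-only set (n = 66), the ovary-only sequences (n = 71) and the miRNA rows of testis (n = 169). In the testis-only set T at position 1 (87.9%) is the highest peak, and A at position 10 (34.8%) stands beside T (36.4%).

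Complementary 5' ends, the sign of the ping-pong cycle, were not found at 10 nt. Of the 66 sequences 0 had first 10 bases that were the reverse complement of the first 10 of any row in testis or in the other libraries. With 1 mismatch allowed, 2 had such a partner in testis. Over 8 nt without a mismatch 1 had a partner in testis and 2 in any library, and over 9 nt 0 had one in testis and 1 in any library. With 1 mismatch, 11 had a testis partner over 8 nt and 3 over 9 nt. How many such short matches unrelated sequences would give was not tested. No overlap from 11 to 18 nt was seen, with or without 1 mismatch. Over 15 nt or more, 1 sequence was complementary to a listed row, and that row was itself. It was a run of TA repeats at 13.79 RPM, chosen for naming after its letters were seen, tcagtcttatatatatatatata. Partners longer than 23 nt or below the listing minimum could not be seen in these files.

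Most of the 66 stood alone. Joining sequences that shared at least 15 nt without a mismatch gave 59 groups, of which 52 held 1 sequence, 7 held 2 and 0 held more. The 14 sequences in pairs made up 26.8% of the summed RPM. The ovary-only sequences were less scattered, with 71 sequences in 48 groups, 35 of them in 12 groups of up to 5.

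The 7 pairs are shown, the higher sequence first, because their sequences share most letters and are not independent of each other.
Pair A higher: tGATCTcaattggcacgtcaagg
Pair A lower: GATCTcaattggcacgtcaagg
Pair B higher: tcgaaGATCTgctccagggtgtc
Pair B lower: tgttcgaaGATCTgctccagggt
Pair C higher: tGATCTcacattatttatagg
Pair C lower: tGATCTcacattatttataggg
Pair D higher: tGATCTtgttctgtctcagca
Pair D lower: tcttgttctgtctcagcaggtca
Pair E higher: taGATCTtcagcttggcaggg
Pair E lower: aGATCTtcagcttggcaggg
Pair F higher: ttcttcagacaccactctctga
Pair F lower: tttcttcagacaccactctctga
Pair G higher: gGATCTtcaggcgcggagcatga
Pair G lower: tgGATCTtcaggcgcggagcatg

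The pairs differed in how firmly one 5' end led. In pair A the form with the first T had 65.83 RPM and the form without it 10.5 RPM, a ratio of 6.27. In pair E the form with the first T also led, 20.44 against 10.85 RPM. Pair F, where both forms begin with T, stood at 16.68 and 10.57 RPM. In pair G the form beginning with G and the one beginning with T were near equal, 13.98 and 13.08 RPM.

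Pair C alone shared its 5' end and differed by 1 nt at the 3' end, with 29.61 and 16.76 RPM. In pairs B and D the windows were moved by 3 nt at the 5' end. Pair B had 24.01 and 22.95 RPM and pair D 15.78 and 15.55 RPM, so neither window led beyond counting error. A shared 5' end was thus seen in 1 of 7 pairs, 1-nt shifts in 4 and larger shifts in 2, and 3 pairs shared their 3' end.

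One further pair of related but distinct sequences was found among those of equal length within 6 mismatches, and was named after its values were seen. The 2 sequences agree in 19 of 23 bases and had 14.69 and 12.85 RPM.
Related, higher: ttctcctggaaggctccaccagg
Related, lower: ttctcccggaggtctcccccagg

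The letters GATCT were the leading 5-letter word of the set, a pattern noticed in the data. On the strand read they occurred in 22 of 66 sequences (33.3%) with 38.4% of the RPM. With only the highest sequence of each overlap group kept, 28.8% of 59 held them. The shares that follow count every sequence, overlapping ones included. By count the share was 14.1% in the ovary-only sequences and 6.33% in the shared non-miRNA rows of testis. It was 0.592% in the miRNA rows of testis and 4.65% in all 1571 distinct sequences of the series. The shorter ATCT, which GATCT contains, was in 34 (51.5%) against 18.3% in the ovary-only sequences and 12.4% in all sequences. On the other strand GATCT reads AGATC, which was in 13 sequences (19.7%), and 12 held both words overlapped as AGATCT. That longer word was in 2.82% of the ovary-only sequences and in 0.955% of all sequences.

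The word lay in the 5' part of every sequence that held it. It started at position 1 in 1 sequence, at 2 in 7, at 3 in 5, at 4 in 3, at 6 in 3, at 7 in 1 and at 9 in 2, and nowhere after position 9. In the ovary-only sequences its 10 occurrences started at position 2 (4), 4 (2) and 5 (4). The word was in both sequences of 5 pairs, in 1 of the sequences of pair D, and in neither of pair F. Sequences with GATCT had a median of 14.55 RPM and those without 12.47 RPM, and 7 of the 22 reached 20 RPM against 4 of the other 44. A first T was seen in 81.8% of those with the word and 90.9% of those without, and 23 nt in 59.1% and 61.4%, so the sequences with and without the word were close in both.

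**Figure D4:**
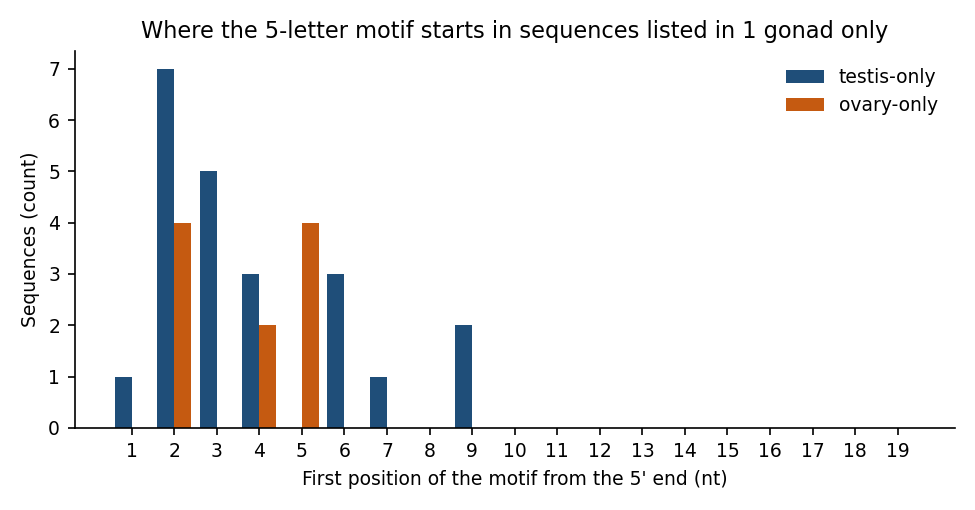
Number of sequences by the position, counted from 1 at the 5' end, at which the 5-letter motif GATCT starts, in the sequences listed only in testis (22 of 66 hold it) and only in ovary (10 of 71). All starts lie at positions 1 to 9, with the tallest bar, 7 testis-only sequences, at position 2.

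The same 5 letters end the Illumina paired-end 5' adapter, which these files also list as rows of its own. Rows matching adapter summed to 197.9 RPM in testis, of which 53.73 RPM ended in GATCT. Ovary had 1355 RPM of adapter, female liver 2677 RPM, male liver 1263 RPM, female brain 256.0 RPM and male brain 211.2 RPM. These sums cover rows above each library's own lowest listed value, 10.03 RPM in testis and 6.026 RPM in male brain, so testis and male brain cannot be ranked by them. Any part of the adapter in the GATCT count was not tested.

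Sequences that both gonads list and brain and liver do not are the nearest neighbours of the set. There were 10, at 11.12 to 46.17 RPM in testis and 10.14 to 63.26 RPM in ovary, and GATCT was in 5 of them. The 2 highest in testis, chosen after their values were seen, are printed because both hold the word.
Gonads, first: tctGATCTgagagagcatctctc
Gonads, second: tGATCTaacatgccagaggctgg
The first had 46.17 RPM in testis and 56.53 RPM in ovary. The second had 33.25 RPM in testis and 63.26 RPM in ovary.

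At bases 2 to 8, the part by which miRNAs find targets, the 66 sequences held 60 different words, and at most 3 sequences shared one. The word GATCTCA was shared by ranks 1, 6 and 17, and ATCTACA by ranks 2 and 16, at 39.32 and 17.23 RPM. Ranks 6 and 17 are the forms of pair C, which share their 5' end, so they do not share the word independently. Rank 16 is tATCTacaggagctcgacccagt, which departs from rank 2 after its first bases. With the reference miRNAs 3 sequences shared bases 2 to 8, a check made after the data were seen. One, at 11.51 RPM, shared them with miR-217-5p and had 3 mismatches to it from the same start. The one sharing them with miR-216-5p, at 19.19 RPM, had 7 mismatches, and the one sharing them with miR-144-3p, at 19.07 RPM, had 9. The first of these lay just outside the limit of 2 mismatches and is printed for that reason.
Near miR-217-5p: tactgcatcatgaactgatga

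Matches to tRNA were few and to rRNA none. Of the 66 sequences 2 matched a tRNA reference with at most 1 mismatch (3.03%) and 0 matched rRNA, where the references covered the short rRNAs and the ends of 18S and 28S rRNA only. Among the shared non-miRNA rows of testis 29.1% matched tRNA and 10.1% rRNA, and among the ovary-only sequences 7.04% and 5.63%. Of all 1571 distinct sequences 3.25% matched tRNA and 1.59% rRNA. These include 1092 assigned to miRNA, which the set leaves out, and 0 of the 169 miRNA rows of testis matched tRNA. The tRNA shares of the set and of the series are therefore not like for like. Rank 4, at 34.11 RPM, matched the 5' end of tRNA-Glu-TTC without a mismatch. Rank 51, at 11.16 RPM, matched tRNA-Ser-AGA with 1 mismatch, and is printed as the single tRNA match that differs from its reference.
Rank 51: gttgtcgtggccgagtggttaag
A further sequence, rank 62 at 10.5 RPM, matched tRNA-Glu-CTC with 1 gap, and was found with an alternative added after the data were seen.
Rank 62: tccctgtggtctagtggttagga

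The 2 sequences that matched tRNA without a gap were also the ones whose kin were listed elsewhere. Only 2 of the 66, ranks 4 and 51, had a relative in another library, meaning a row overlapping by at least 15 nt without mismatch or differing by 1 substitution. The form of rank 4 that is longer by 2 nt had 143 RPM in testis, 59.8 RPM in female brain and 105 RPM in male brain, and was unlisted in liver and ovary. The form longer by 3 nt had 170.3 RPM in testis, 14.97 RPM in female brain, 13.88 RPM in male brain and 6.826 RPM in female liver. Kin of this tRNA piece were thus listed in brain and liver too. A form of rank 51 shorter by 2 nt had 48.95 RPM in testis, 18.65 RPM in ovary and 7.556 RPM in male liver, and a form with 1 substitution had 12.54 RPM in ovary. For the other 64 no relative of this kind was listed outside testis, while 14 of the 71 ovary-only sequences had one in another library. Forms both shifted and mismatched, or with a gap, were not searched for.

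The 3' ends leaned to G. The last base was G in 53.0% of the set, A in 24.2%, T in 15.2% and C in 7.58%, and 30.3% ended with GG. The ovary-only sequences ended with G in 47.9% and with GG in 22.5%. The miRNA rows of testis did so in 26.0% and 6.51%, T being their most common last base at 48.5%. Over all 1571 distinct sequences the shares were 24.3% for G and 7.38% for GG. Of the 10 rows that only ovary and testis list, 4 ended with G, 3 of them with GG. Of the 9 non-miRNA sequences listed only in a single brain or liver library, 4 ended with G, 3 of them with GG. The GG ending was thus about as common in these small groups as in the set. The share of G and C had a median of 47.8% and ran from 13.0 to 69.6%, with the same median of 47.8% in the ovary-only sequences.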

How the data were processed

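Small RNA of pooled organs was gel-purified, ligated to adapters at both ends, reverse transcribed and amplified, per the labels' protocols. The submitters' processing notes name CASAVA 1.7.0. For adapter trimming, alignment and the listing minimum, the method is not given in the sources used here. Every deposited file gives exact sequences, their length and an expression value taken to be RPM as made by the authors, since every value was a whole multiple, within 0.02 reads, of 1 read in a fixed total. Testis has 1 library, so no count test or other test was run. The 66 sequences and the features described were chosen with earlier results of these data known.

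Rows were compared with 191 hand-written miRNA references (at most 2 mismatches, 5' shift of at most 3 nt, overlap of at least 17 nt), 6 rRNA and 22 tRNA references (at most 1 mismatch over the whole row) and 6 adapters (overlap of at least 17 nt, at most 2 mismatches). Of the miRNA references, 6 (miR-2184 among them) and the paired-end adapter were added after unassigned rows had been seen. Of the 1571 sequences 1092 went to miRNA, 66 to adapter and 413 to neither. The matching was tested on simulated sequences. Named sequences were the 10 highest, the higher of each overlap pair, the tRNA matches and the 3 nearest the minimum. Any other sequence printed was chosen after its values were seen. Alternatives covered the minimum, the mismatch limits, the overlap and the libraries compared. Tools were Python 3.11.15, pandas 2.3.3, SciPy 1.17.1 and edlib 1.3.9.post1.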

Additional observations from a re-analysis of the deposited data

How the results depend on the processing

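No paired analysis was possible because each group has 1 library. Of 148 alternative values over 23 settings 128 stayed within 1.5 times the count given, or within the Wilson interval of the share, and 20 moved. These limits are a yardstick only. The 66 sequences are not replicates, and most alternative sets share most of them. The minimum mattered most. With 20 RPM there were 11 sequences with 349.6 RPM, 1 overlap pair, 1 relative elsewhere and 1 tRNA match, 100% began with T and 63.6% held GATCT. With 50 RPM 1 sequence of 65.83 RPM was left, with 100% at 23 nt, 100% with a first T, 100% with GATCT, 0% with A at position 10, and 0 pairs, relatives and tRNA matches. Leaving out sequences with a relative elsewhere gave 64 sequences, 0 relatives and 0 tRNA matches. The 0 relatives were fixed by that setting, and the tRNA matches, ranks 4 and 51, were the sequences it left out. With 0 mismatches 1 sequence matched tRNA, and with 1 mismatch allowed 2 sequences had a partner over 10 nt at the 5' end. Without comparison to the ovary file the set held 76 sequences, and without the miR-2184 reference 68. This last alternative, the one allowing gaps, the one leaving out GATCT sequences, and all settings for summed RPM and for GATCT were added after the data were seen. Depth limits the lowest 16 sequences, whose intervals start under the lowest ovary value, and the files hold nothing beyond 23 nt.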
